A study of Mus musculus with 16 samples.

Results

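The ion, sugar and organic ion transporters described here are the genes of 6 solute carrier families, named Slc4, Slc5, Slc9, Slc12, Slc22 and Slc34. All symbols made of 1 of these family names, the letter a and a number were taken, and each had at least 1 count in at least 1 library, which gave 67 of the 24984 genes in the count tables. Slc4 held 10 genes, Slc5 held 11, Slc9 held 9, Slc12 held 9, Slc22 held 25 and Slc34 held 3. They were followed in bulk RNA of kidney and liver from aged female C57BL/6 mice of wild-type genotype, labelled 24 months old. Each mouse received an AAV8 vector into the tail vein, either with a short hairpin RNA against *Fos* (shFos) or with a non-targeting hairpin (NT), and the organs were collected 3 months later. The control mice thus carried AAV8 and a hairpin as well, and uninjected mice were not analysed here. AAV8 is an adeno-associated virus serotype that reaches hepatocytes far more readily than kidney tubule cells, and the cells that took up the vector were not marked in these libraries. There were 16 libraries, 4 for each organ and treatment.

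Solute carriers move ions and small molecules across cell membranes. Most of those described here draw on the sodium gradient across the cell membrane. In the kidney they line the nephron in a fixed order, with glucose, phosphate, bicarbonate and organic ions recovered or secreted in the proximal tubule, sodium chloride taken up in the thick ascending limb and the distal convoluted tubule, and acid or base secreted by the intercalated cells of the collecting duct. In the liver, members of the same families keep the pH and volume of hepatocytes and take up organic cations and anions, many of them drugs, from the blood. *Fos* is a subunit of AP-1, a transcription factor that binds TGANTCA and is known for rapid responses to stress and inflammation.

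Counted reads ranged from 14194543 to 15534665 per kidney library and from 16652150 to 18300277 per liver library. Values for each library are CPM, the reads of a gene relative to the size of its library after TMM scaling over all 16 libraries. Levels of different genes are compared only as TPM, which also divide by exon length. The labels do not say which mouse gave which library, so the p-values measure the spread between these libraries. Markers of hepatocytes summed to between 53660 and 175200 TPM in liver libraries and to between 255.5 and 906.1 TPM in kidney libraries, so each library carried the markers of its labelled organ. *Fos* had a log2 fold change of -0.73 in kidney (edgeR adjusted p = 0.0955, unadjusted p = 0.0178) and of -0.47 in liver (adjusted p = 0.778, unadjusted p = 0.242). Neither passed the threshold of 0.05 after adjustment, which 0 of 14892 genes passed in kidney and 0 of 13144 in liver. All shFos kidneys (1.61 to 2.95 CPM) were below all NT kidneys (2.99 to 4.73 CPM), and the livers overlapped. The paper reported lower *Fos* by RT-qPCR in both organs.

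Some libraries stood apart from the rest of their group, and values without them are given beside the results that they change most. Kidney NT replicate 4 held the lowest value of its group for 37 of 62 transporters with a mean of at least 10 counts in the NT kidneys. For 13 of the 62 it was more than 2-fold below the mean of the other NT kidneys. Its summed level of 8 proximal tubule markers was 3748 TPM, compared with 6752 to 7969 in the other NT kidneys and 8237 to 11710 in the shFos kidneys. The markers did not move together. *Lrp2*, *Cubn*, *Gatm*, *Miox* and *Fbp1* were lowest there among the NT kidneys. *Aqp1* (868.6 CPM, others 508.8 to 633.9) and *Hnf4a* (620.0 CPM, others 394.7 to 428.1) were highest there, and *Ass1* stayed under 0.2 CPM in every kidney. Kidney shFos replicate 1 lay with the NT kidneys for many transporters. Replicates 2 to 4 of the shFos kidneys were past all 4 NT kidneys for 28 of 63 transporters tested, and replicate 1 was inside the NT range for 17 of these 28. The same count was not made over all genes. Without kidney shFos replicate 1, 42.86% of the transporters and 40.67% of all genes had an unadjusted edgeR p under 0.05. Liver NT replicate 4 held 13720 TPM of the 4 tubular injury markers, compared with 272.7 to 1591 in the other NT livers. The sum was mostly *Lcn2* (8710 CPM, others 130.9 to 1046). *Vcam1* was inside the range of the other NT livers, and *Havcr1* and *Krt20* did not pass 0.6 CPM. The same library held 53660 TPM of hepatocyte markers, compared with 133600 to 171700. *Alb*, *Ttr*, *Serpina1c* and *Cyp2e1* were lowest there among the NT livers. *Apoa1* (12600 CPM, others 5429 to 10180) and *Cps1* (3042 CPM, others 2238 to 2963) were highest there. The share of each cell type was not measured, and in bulk RNA fewer cells of a type and less RNA per cell cannot be told apart.

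To find out which organ uses which transporter, the NT kidneys were compared with the NT livers in a single edgeR fit of all 16 libraries. Of the 67 transporters, 63 passed the filter on low counts, and 54 of these differed between organs at an adjusted p under 0.05. Kidney was higher for 45, where 34.4% of all genes tested were higher in kidney, and liver was higher for 9, where 30.2% of all genes were. The median log2 difference of the 63 transporters was 2.59 towards kidney, and that of all 15421 genes tested was 0.054. The 67 genes together held 8424 ± 1754 TPM in NT kidneys (SD, n = 4) and 916.9 ± 282.9 TPM in NT livers. In kidney 44 had a mean of at least 10 TPM and 6 were under 1 TPM, while in liver 14 had at least 10 TPM and 36 were under 1 TPM. The genes below the filter were *Slc5a5*, *Slc5a7*, *Slc22a16* and *Slc22a20*, none of which reached 1 CPM in any library.

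**Figure D1:**
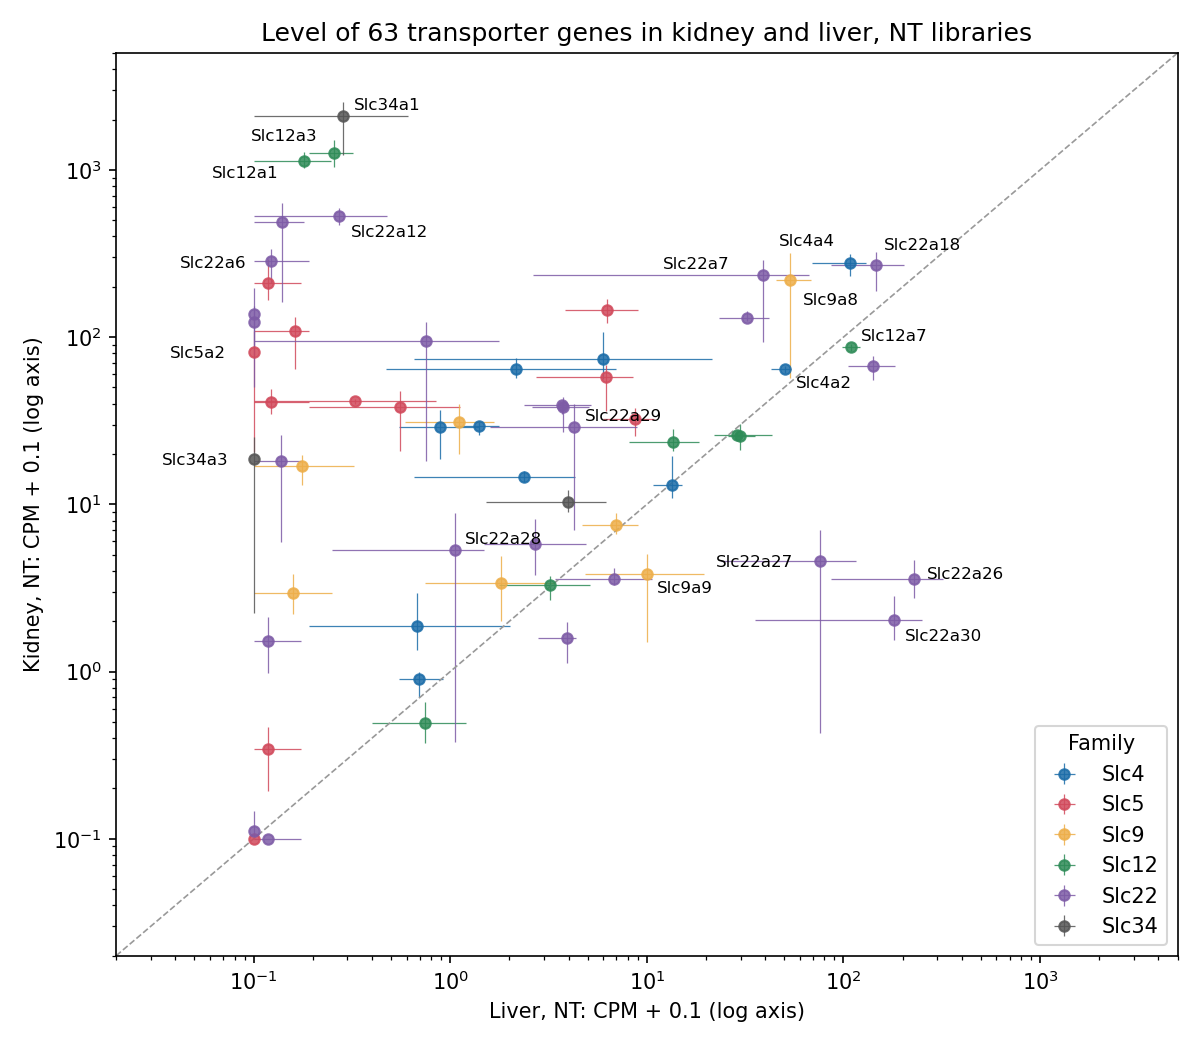
Mean level of 63 of the 67 transporters in the 4 NT livers (horizontal axis) and the 4 NT kidneys (vertical axis), in CPM plus 0.1 on log axes, coloured by family, with bars from the lowest to the highest library and a dashed line of equal level. Most points lie above the line, *Slc34a1*, *Slc12a1* and *Slc12a3* sit at the top left, and *Slc22a26*, *Slc22a27* and *Slc22a30* stand alone at the lower right.

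The phosphate transporters were the most kidney-bound family. *Slc34a1*, the main sodium-phosphate cotransporter of the proximal tubule, had the highest level of all 67 genes, at 1691 ± 506 TPM in NT kidneys, which was 97.92% of the level of its family. Its CPM was 2395, 2198, 2538 and 1223 in the NT kidneys and 0 to 0.512 in the NT livers, so the organs lay far apart. *Slc34a3*, a second renal phosphate cotransporter, had 24.2, 22.95, 25.2 and 2.15 CPM in NT kidneys and no read in any of the 8 livers. Against a limit of 3 counts over the 4 NT livers it was at least 308.9-fold higher in kidney. *Slc34a2*, the phosphate transporter of lung and gut, was the only member of its family with reads in every liver, at 3.69, 6.104, 4.245 and 1.42 CPM in NT livers and 8.90, 9.58, 10.3 and 12.05 CPM in NT kidneys, 2.64-fold higher in kidney (adjusted p = 0.015).

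Sodium-chloride uptake was split in the same way between organs. *Slc12a1*, the cotransporter of the thick ascending limb that furosemide blocks, had 1025, 1131, 1279 and 1086 CPM in NT kidneys, and *Slc12a3*, the thiazide-sensitive cotransporter of the distal convoluted tubule, had 1514, 1413, 1055 and 1045 CPM. Neither passed 0.6 CPM in any liver library. As TPM, *Slc12a3* held 867 ± 176 and *Slc12a1* held 744 ± 77.3 in NT kidneys, and their ranges overlapped. The potassium-chloride cotransporters and the widely expressed members did not share this split. *Slc12a4*, which regulates cell volume, had a log2 difference of -0.16 (adjusted p = 0.429), and the neuronal *Slc12a5* one of 0.035 (adjusted p = 0.932). *Slc12a7*, another potassium-chloride cotransporter, was the leading Slc12 gene of the liver, with 49.38% of the family's TPM there, and was 1.24-fold higher in liver on the TMM scale (adjusted p = 0.0203). *Slc12a2*, the sodium-potassium-chloride cotransporter found in most cells, was 1.74-fold higher in kidney.

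All 9 Slc5 genes tested were higher in kidney. *Slc5a2*, the high-capacity glucose transporter of the early proximal tubule and the target of gliflozin drugs, had 108, 91.35, 107 and 20.6 CPM in NT kidneys and no read in any NT liver, which makes it at least 1357-fold higher. *Slc5a1*, its high-affinity partner further down the tubule, was 9.41-fold higher in kidney and kept 8.402, 6.51, 6.95 and 2.62 CPM in NT livers. By TPM the leading Slc5 genes of the NT kidney were *Slc5a12*, a lactate transporter, at 187 ± 47.1, *Slc5a10*, a transporter of fructose and mannose, at 155 ± 47.3, and *Slc5a2*, at 117.5 ± 60.7. Their ranges overlapped, so no order among the 3 is drawn. In the liver the family was near its floor. *Slc5a6*, the transporter of biotin and pantothenate, held 49.19% of the family's summed level of 6.572 ± 1.298 TPM.

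Of the bicarbonate transporters 7 of 10 were higher in kidney and none in liver, and of the sodium-proton exchangers 6 of 9 were higher in kidney and 1 in liver. *Slc4a4*, the basolateral sodium-bicarbonate cotransporter, had 314.5, 231, 299 and 263 CPM in NT kidneys and 69.3, 131, 99.6 and 129.7 CPM in NT livers, 2.58-fold higher in kidney (adjusted p = 0.000114). *Slc4a2*, a chloride-bicarbonate exchanger of most cells and of the bile canaliculus, led the family in liver with 41.57% of its TPM and differed by only 1.28-fold between organs (adjusted p = 0.00244), a difference that a correction for GC content took to -0.057 on the log2 scale (adjusted p = 0.599). The exchangers of intercalated cells, *Slc4a1* (band 3) and *Slc4a9*, were 31.3-fold and 12.4-fold higher in kidney. A single liver set each value, since *Slc4a1* was 133.6-fold higher without liver NT replicate 2 and *Slc4a9* 104.3-fold higher without liver NT replicate 4. Among the sodium-proton exchangers, *Slc9a3*, the apical exchanger of the proximal tubule, was 193-fold higher in kidney, and 487-fold without liver NT replicate 4. By TPM the leading Slc9 gene of both organs was *Slc9a8*, an exchanger of the Golgi and of apical membranes, at 159 ± 83.1 in NT kidneys and 16.9 ± 3.96 in NT livers. *Slc9a9*, an exchanger of late endosomes, went the other way and was 2.66-fold higher in liver (adjusted p = 0.00598).

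The organic ion transporters of the Slc22 family divided most sharply. Of 23 tested, 16 were higher in kidney and 7 in liver, and none failed the test. The secretory anion transporters of the proximal tubule, *Slc22a6* (OAT1) and *Slc22a8* (OAT3), ranged from 211 to 338 and from 162 to 635 CPM in NT kidneys and stayed under 0.4 CPM in every liver. The urate transporter *Slc22a12* (URAT1) had the highest level of the family by TPM, 770.3 ± 87.6, and *Slc22a2* (OCT2), the renal cation transporter, had 118, 121, 122 and 18.2 CPM. The carnitine transporter *Slc22a5* (OCTN2) was 4.02-fold and *Slc22a7* (OAT2) 6.04-fold higher in kidney, and both had reads in every liver. *Slc22a13*, an apical transporter of urate and nicotinate whose gene span overlaps that of *Slc22a14*, and *Slc22a19* (OAT5) had no read in any NT liver and were at least 2047-fold and 2291-fold higher in kidney. *Slc22a18*, an imprinted member, was high by TPM in liver, at 124 ± 39.4, and in kidney, at 531 ± 121.

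The scale decides 4 of these organ calls. Before TMM, as TPM, the median of 14841 genes with a mean of at least 0.5 CPM lay 1.21 higher in kidney on the log2 scale, compared with 0.0195 as TMM-scaled CPM. Among them *Slc12a7*, *Slc22a15* and *Slc22a23* were higher in liver after TMM and higher in kidney as TPM. The other 5 genes that were higher in liver (*Slc22a30*, *Slc22a26*, *Slc22a27*, *Slc9a9* and *Slc22a3*) were so on both scales. Upper-quartile scaling left 7 genes higher in liver, without *Slc12a7* (adjusted p = 0.218) and *Slc22a15* (adjusted p = 0.07204), and turned the sign of 2 genes that were not called on either scale, *Slc12a4* (log2 difference 0.001239) and *Slc4a7* (from -0.04954 to 0.1055). DESeq2 size factors turned no sign among the 62 transporters for which DESeq2 gave an adjusted p. Of these calls, those of *Slc4a2* (adjusted p = 0.6317), *Slc22a23* (adjusted p = 0.2204) and *Slc34a2* (adjusted p = 0.09967) were not made when shFos kidneys were compared with shFos livers in the same fit.

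The 3 genes with the largest difference towards liver lie side by side with kidney genes. On the minus strand of chromosome 19 (mm10), *Slc22a19*, *Slc22a26*, *Slc22a27*, *Slc22a28*, *Slc22a29* and *Slc22a30* follow each other, with gaps of 28182 to 116470 bases between neighbours. *Slc22a8* and *Slc22a6* come next, on the plus strand and 6203 bases apart. *Slc22a30* spans 8335371 to 8405111, and it had 250.1, 191, 248 and 35.45 CPM in NT livers and 2.09, 1.455, 2.72 and 1.45 CPM in NT kidneys. Every NT liver was above every NT kidney, and the difference was 93.5-fold (adjusted p = 1.19e-07). *Slc22a26* was 65.3-fold and *Slc22a27* 16.8-fold higher in liver. *Slc22a28* spans 8062209 to 8131982, and it had 7.05, 4.88, 8.797 and 0.2802 CPM in NT kidneys and 1.29, 0.977, 1.39 and 0.1499 CPM in NT livers, 5.52-fold higher in kidney (adjusted p = 0.00934), although NT replicate 4 of the kidney lay among the livers. *Slc22a29* was 7.003-fold higher in kidney (adjusted p = 0.000451), and 10.8-fold without liver NT replicate 1.

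**Figure D2:**
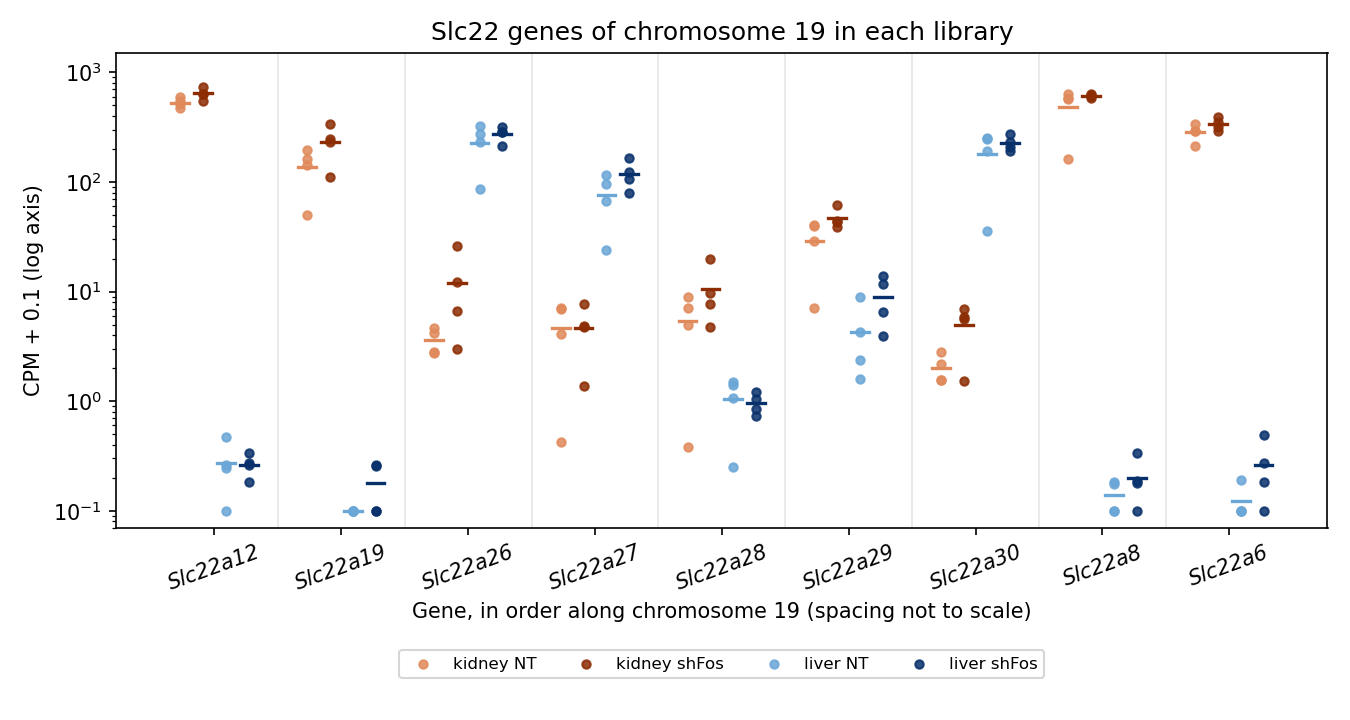
*Slc22* genes of chromosome 19 in their order along the chromosome, with CPM plus 0.1 on a log axis for each of the 16 libraries (points, coloured by organ and treatment) and the group means (short lines). *Slc22a26*, *Slc22a27* and *Slc22a30* are higher in every liver than in every kidney, and the other genes shown have higher group means in kidney, with kidney NT replicate 4 among the livers for *Slc22a28* and *Slc22a29*.

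These opposite levels belong to genes of close sequence. The longest transcripts of *Slc22a28* and *Slc22a30* were identical at 93.3% of 1902 aligned bases, and those of *Slc22a27* and *Slc22a29* at 96.1% of 2142. In GENCODE M21, 28.5% of the 150-base stretches of *Slc22a28* transcripts also occurred in *Slc22a30*, and 0.558% of those of *Slc22a27* in *Slc22a29*. Reads from shared stretches can be lost or assigned to either gene, so the levels of *Slc22a28* and *Slc22a30* are uncertain to that extent. *Slc22a30* was higher in each of the 8 livers than in any kidney, and *Slc22a28* was higher in each kidney except NT replicate 4 than in any liver. The 250 bases upstream of the RefSeq starts of this pair were printed to show how alike they are. They matched at 238 of 244 aligned bases, with 6 substitutions, and the windows are offset by 6 bases. In the sequences below, capitals mark bases without an identical partner in the alignment, including the overhang. Both are from build GRCm38.p6 and the minus strand, chr19:8405106-8405355 for *Slc22a30* and chr19:8131983-8132232 for *Slc22a28*.
Slc22a30: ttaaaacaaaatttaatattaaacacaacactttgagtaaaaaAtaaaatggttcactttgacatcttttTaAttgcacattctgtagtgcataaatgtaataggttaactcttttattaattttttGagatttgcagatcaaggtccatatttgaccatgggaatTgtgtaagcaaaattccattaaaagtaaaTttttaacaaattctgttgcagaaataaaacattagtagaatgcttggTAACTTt
Slc22a28: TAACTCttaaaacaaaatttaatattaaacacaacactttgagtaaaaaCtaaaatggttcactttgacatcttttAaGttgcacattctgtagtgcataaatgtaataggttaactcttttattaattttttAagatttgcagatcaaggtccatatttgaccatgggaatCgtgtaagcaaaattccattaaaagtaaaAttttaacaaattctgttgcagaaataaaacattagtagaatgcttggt

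A start with upstream sequence was listed by RefSeq for 52 of the 67 transporters, in 62 windows of 300 bases from 250 before to 50 after the start. The AP-1 motif TGANTCA, which reads the same on both strands, occurred in the windows of 3 of these 52 genes (5.77%), and in those of 8.97% of all 27025 genes listed. The 3 are shown because the vector targets an AP-1 subunit, with the motif in capitals and the plus strand of GRCm38.p6 from chr2:62046381-62046440 for *Slc4a10*, chr9:94669770-94669829 for *Slc9a9* and chr2:164960658-164960717 for *Slc12a5*.
Slc4a10: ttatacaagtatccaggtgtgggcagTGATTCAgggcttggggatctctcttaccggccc
Slc9a9: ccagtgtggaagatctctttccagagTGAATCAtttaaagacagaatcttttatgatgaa
Slc12a5: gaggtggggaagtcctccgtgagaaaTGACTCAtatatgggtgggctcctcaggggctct
*Slc4a10* and *Slc12a5*, 2 transporters of the nervous system, were both low. *Slc4a10* had 0.603, 0.845, 0.875 and 0.887 CPM in NT and 1.02, 0.3805, 0.297 and 0.161 CPM in shFos kidneys, and *Slc12a5* had 2.58 to 3.64 CPM in NT and 1.93 to 3.785 CPM in shFos kidneys, so the groups overlapped for both. *Slc9a9* had 4.36, 4.93, 4.19 and 1.401 CPM in NT kidneys and 3.74, 2.95, 3.66 and 2.89 CPM in shFos kidneys, and none of the 3 passed the test of treatment in kidney or liver with all libraries. Without kidney shFos replicate 1, edgeR called *Slc4a10* (adjusted p = 0.0203) and not *Slc12a5* (adjusted p = 0.0538) or *Slc9a9* (adjusted p = 0.655).

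To see whether the transporters differed with *Fos* knockdown in kidney, the 4 shFos kidneys were compared with the 4 NT kidneys. None of the 63 transporters tested passed an adjusted p of 0.05 in edgeR, as for all genes, of which 0 of 14892 (0%) passed. At an unadjusted p under 0.05 there were 20 of the 63 (31.75%), with 10 higher and 10 lower, next to 31.9% of all genes. With CPM scaled over the 8 kidneys alone, the groups did not overlap for 6 of the 63 (9.52%), next to 17.2% of all genes, and with CPM scaled over all 16 libraries, as printed here, they did not overlap for 7, with *Slc5a2* added. DESeq2, which the study used for normalization, called 13 transporters, 6 higher and 7 lower, with 17.0% of all genes called. Without shFos replicate 1, edgeR called 17 transporters, 5 higher and 12 lower, with 27.5% of all genes called, and 11 of the 13 that DESeq2 called were among these 17. The median log2 fold change was 0.162 for the transporters and 0.002 for all genes. The counts by family at an unadjusted p under 0.05 were 4 of 10 for Slc4, 3 of 9 for Slc5, 3 of 9 for Slc9, 4 of 9 for Slc12, 6 of 23 for Slc22 and 0 of 3 for Slc34.

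**Figure D3:**
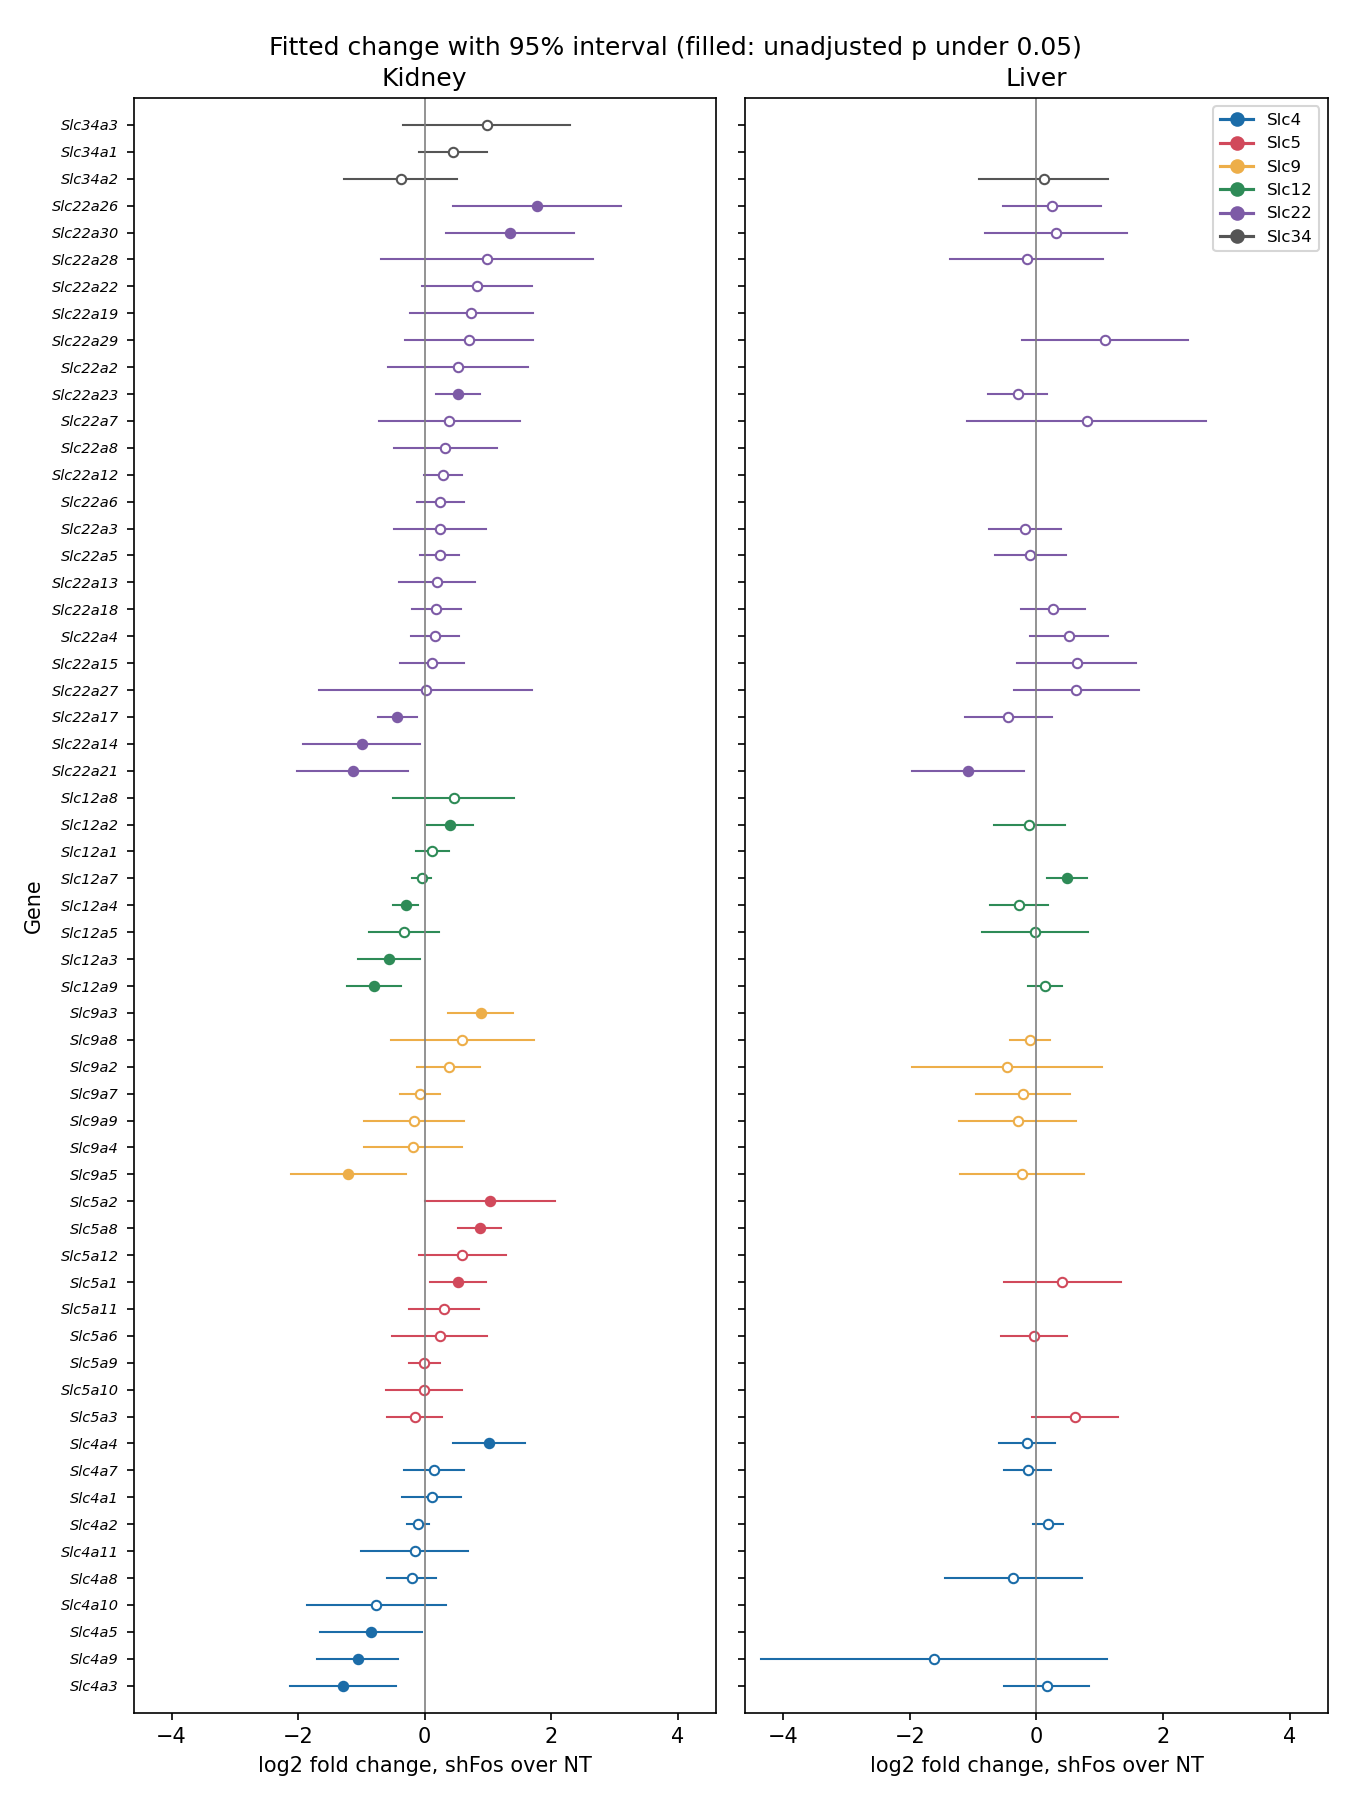
Fitted log2 fold change of shFos over NT with its 95% interval for 59 of the 63 transporters tested in kidney (left) and 34 of the 38 tested in liver (right), grouped and coloured by family, with filled points for an unadjusted p under 0.05. In kidney most *Slc22*, *Slc5* and *Slc34* points lie to the right of 0 and most *Slc4* points to the left, with 9 filled on the right and 10 on the left, and in liver 2 points are filled.

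Of 20 genes known from the proximal tubule, a list drawn up after values of these data were known, 19 had a mean fold change above 0 in shFos kidneys (95%), next to 50.3% of all genes, and 5 of them reached an unadjusted p of 0.05 (25%), below the 31.9% of all genes. Their median log2 fold change was 0.487, which was 0.241 without NT replicate 4 and 0.267 without NT replicate 4 and shFos replicate 1. Their summed level was 6173, 5834, 6623 and 3408 TPM in NT kidneys 1 to 4 and 6612, 6920, 7079 and 7551 TPM in shFos kidneys 1 to 4. The shFos kidneys were above the NT kidneys except that shFos replicate 1 lay just under NT replicate 3, and NT replicate 4 was far below the rest. The 8 proximal tubule markers, none of them a transporter of these families, were higher in all shFos kidneys than in all NT kidneys in sum, at 8237 to 11710 against 3748 to 7969 TPM. Markers of some other cells were higher too, with 4 of 4 podocyte markers (median log2 fold change 0.83) and 3 of 4 endothelial markers (median 0.31) higher at an unadjusted p under 0.05, and with overlapping sums of 190.7 to 385.6 against 142.1 to 225.0 TPM and of 188.6 to 257.8 against 150.4 to 193.3 TPM. Medians were also above 0 for thick ascending limb (0.23) and fibroblast markers (0.14). They were under 0 for distal convoluted tubule (-0.27), principal cell (-0.30), intercalated cell (-0.13), macrophage (-0.22) and lymphocyte markers (-0.85). The same held for hepatocyte (-0.40), cholangiocyte (-0.435), neutrophil (-0.97), red cell (-0.11) and tubular injury markers (-0.17). The part of these markers in the result was not tested. Of 5 genes of the distal nephron and collecting duct, 2 had a fold change above 0 and 3 under it, 2 of the 3 at an unadjusted p under 0.05 (40% of the 5, next to 31.9% of all genes), and their summed level was 1879, 1806, 1692 and 1544 TPM in NT and 1856, 1379, 1330 and 1191 TPM in shFos kidneys 1 to 4. Of 10 widely expressed members, 4 were above 0 and 6 under 0, with a median of -0.0587. The lists of 5 and of 10 genes were also drawn up after values of these data were known.

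*Slc4a4*, which carries bicarbonate from the proximal tubule cell to the blood, had 314.5, 231, 299 and 263 CPM in NT kidneys and 308, 557, 726 and 637 CPM in shFos kidneys. Replicates 2 to 4 of the shFos group were above every NT kidney, and replicate 1 was inside the NT range. The log2 fold change was 1.02 ± 0.25 (SE; edgeR adjusted p = 0.066), 1.18 without shFos replicate 1 (edgeR adjusted p = 0.00164), and DESeq2 called it (adjusted p = 0.00246). *Slc9a3*, which exchanges sodium for protons on the apical side of the same cells, had 12.9, 15.7, 19.2 and 19.6 CPM in NT and 19.25, 34.7, 40.03 and 29.8 CPM in shFos kidneys. Again replicates 2 to 4 lay above the NT range and replicate 1 inside it, with a log2 fold change of 0.89 ± 0.23 (edgeR adjusted p = 0.066, DESeq2 adjusted p = 0.00651), and edgeR called it without shFos replicate 1 (adjusted p = 0.00378).

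*Slc5a8*, a sodium-coupled transporter of lactate and other monocarboxylates, had the smallest p of the 63 genes. It had 42.5, 37.4, 48.7 and 34.5 CPM in NT and 62.6, 67.1, 89.2 and 77.25 CPM in shFos kidneys, and all 4 shFos kidneys were above all 4 NT kidneys. Its log2 fold change of 0.87 ± 0.15 missed the threshold in edgeR (adjusted p = 0.066) and passed it in DESeq2 (adjusted p = 0.000102), and over 17 alternatives the adjusted p ranged from 0.000102 to 0.192., with 0.00379 in edgeR without shFos replicate 1 *Slc5a12*, which carries the same kind of substrate, had 166.5, 183, 197 and 294 CPM in NT and 170.4, 271, 478 and 337.5 CPM in shFos kidneys, and NT replicate 4 was above shFos replicates 1 and 2. For *Slc5a1* the groups did not overlap either, at 65.9, 59.3, 68.4 and 35.8 CPM in NT and 74.1, 83.9, 79.3 and 92.3 CPM in shFos kidneys (log2 fold change 0.53 ± 0.19, edgeR adjusted p = 0.107). *Slc5a2* had 108, 91.35, 107 and 20.6 CPM in NT and 109.6, 165, 219 and 175.5 CPM in shFos kidneys, where NT replicate 4 alone was under 30 CPM and shFos replicate 1 was close to the NT kidneys. Its log2 fold change was 1.03 ± 0.46 (edgeR adjusted p = 0.156) and 0.71 without NT replicate 4.

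The phosphate transporters had the same arrangement of libraries. *Slc34a1* had 2395, 2198, 2538 and 1223 CPM in NT and 2322, 2892, 3219 and 2944 CPM in shFos kidneys, so that shFos replicate 1 was inside the NT range and NT replicate 4 was lowest of all 8. The log2 fold change was 0.45 ± 0.24 (edgeR adjusted p = 0.224). *Slc34a3* had 24.2, 22.95, 25.2 and 2.15 CPM in NT and 22.02, 35.15, 51.8 and 37.8 CPM in shFos kidneys, with a log2 fold change of 0.98 ± 0.59 (edgeR adjusted p = 0.28) and of 0.61 without NT replicate 4. With NT replicate 4 and shFos replicate 1 both left out, an alternative chosen after seeing the data, edgeR called *Slc34a3* (adjusted p = 0.00532) and not *Slc34a1* (adjusted p = 0.051). *Slc34a2* had 12.1, 9.32, 2.18 and 7.77 CPM in shFos kidneys, and replicates 3 and 4 were below the NT range of 8.90 to 12.05 CPM.

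**Figure D4:**
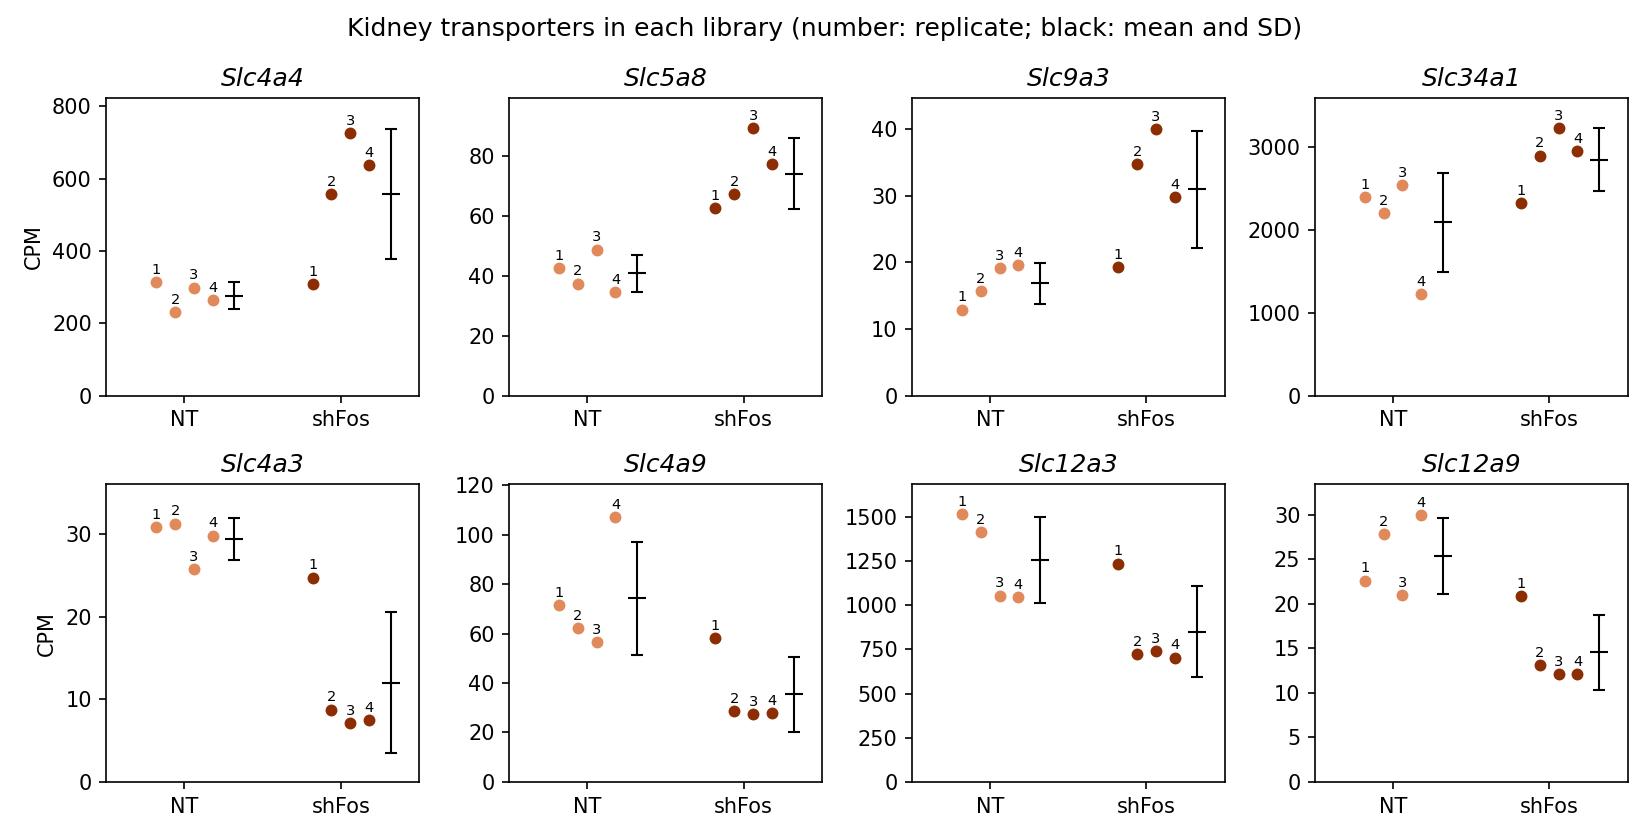
CPM of 8 transporters in each NT and shFos kidney (numbers are replicates, black marks are the mean and SD of 4 libraries, axes start at 0). In the upper row shFos replicates 2 to 4 are above all NT kidneys, in the lower row they are below them, and shFos replicate 1 lies in or next to the NT range in all panels except *Slc5a8*.

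Among the chloride transporters, *Slc12a1* of the thick ascending limb had 1025, 1131, 1279 and 1086 CPM in NT and 1315, 1298, 1142 and 1163 CPM in shFos kidneys, which overlapped, with a 95% interval of the log2 fold change from -0.14 to 0.39. *Slc12a3* of the distal convoluted tubule had 1514, 1413, 1055 and 1045 CPM in NT and 1235, 724, 740.0 and 703 CPM in shFos kidneys. Replicates 2 to 4 were under every NT kidney and replicate 1 was inside their range. The log2 fold change was -0.56 ± 0.22 (edgeR adjusted p = 0.118), and -0.83 without shFos replicate 1 (edgeR adjusted p = 0.00997). Beside it, the summed level of 3 markers of the same segment was 356.3 to 495.0 TPM in NT and 263.0 to 424.1 TPM in shFos kidneys. By TPM the mean of *Slc12a3* was above that of *Slc12a1* in NT kidneys and below it in shFos kidneys, at 572 ± 199 and 783.5 ± 86.4, although the ranges of the pair overlapped in both groups. *Slc12a9*, a relative with no established cargo, had 22.6, 27.8, 21 and 29.98 CPM in NT and 20.9, 13.1, 12.1 and 12.1 CPM in shFos kidneys, with all shFos kidneys below all NT kidneys and replicate 1 only just so (log2 fold change -0.80 ± 0.19, edgeR adjusted p = 0.066, DESeq2 adjusted p = 0.00596, edgeR adjusted p without shFos replicate 1 = 0.00207). *Slc12a4* had 25.2, 26.2, 26.5 and 25.3 CPM in NT and 22.4, 23.2, 18.4 and 19.8 CPM in shFos kidneys, again without overlap, at a smaller log2 fold change of -0.30 ± 0.087 (edgeR adjusted p = 0.0731, and 0.0246 without shFos replicate 1). *Slc12a2* leaned the other way, with 22.2, 23.3, 20.7 and 27.98 CPM in NT and 42.8, 28.7, 25.7 and 26.6 CPM in shFos kidneys, where replicate 1 was the highest (log2 fold change 0.40 ± 0.16, edgeR adjusted p = 0.133).

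The intercalated cells hold 2 of the exchangers measured here. *Slc4a9* had 71.3, 62.1, 56.4 and 107 CPM in NT and 58.1, 28.5, 27.4 and 27.8 CPM in shFos kidneys. Replicates 2 to 4 held less than any NT kidney, and replicate 1 lay between the lowest NT values. The log2 fold change was -1.06 ± 0.28 (edgeR adjusted p = 0.0666, DESeq2 adjusted p = 0.00645), and without shFos replicate 1 edgeR called the gene (adjusted p = 0.00374). *Slc4a1*, by which the acid-secreting cells of the same segment return bicarbonate to blood, had 74.4, 57.4, 57.02 and 68.8 CPM in NT and 63.8, 57.9, 102 and 53.25 CPM in shFos kidneys, which overlapped, with an interval from -0.35 to 0.58. The 5 markers of intercalated cells summed to 281.2 to 347.1 TPM in NT and 239.0 to 312.3 TPM in shFos kidneys, and none of the 5 had an unadjusted p under 0.05. *Slc4a3*, an anion exchanger known from heart and nerve, had 30.8, 31.3, 25.75 and 29.8 CPM in NT and 24.7, 8.75, 7.075 and 7.50 CPM in shFos kidneys, and was named after its values were seen. All shFos kidneys were below all NT kidneys, and replicate 1 stayed close to them, with a log2 fold change of -1.29 ± 0.37 (edgeR adjusted p = 0.0719) and of -1.94 without it (edgeR adjusted p = 0.000246).

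The main organic ion transporters of the proximal tubule overlapped between treatments. *Slc22a6* had 292, 293, 338 and 211 CPM in NT and 314.5, 348.5, 292 and 391 CPM in shFos kidneys. *Slc22a12* had 509, 543, 592 and 468 CPM in NT and 640.3, 549, 739.5 and 636 CPM in shFos kidneys. The 4 shFos values were spread over and just above the NT range in both, with log2 fold changes of 0.25 ± 0.16 and 0.29 ± 0.13. *Slc22a8* had 635, 570.3, 582 and 162 CPM in NT and 578, 609.7, 621 and 636 CPM in shFos kidneys. *Slc22a2* had 118, 121, 122 and 18.2 CPM in NT and 138, 125, 111.5 and 174 CPM in shFos kidneys. For both, 3 NT kidneys were at the level of the shFos kidneys and NT replicate 4 was far below. *Slc22a7* had 273, 281, 289 and 93.8 CPM in NT and 326.5, 284, 96.7 and 519.8 CPM in shFos kidneys, so that NT replicate 4 and shFos replicate 3 were both low. Of 23 members tested, 20 had a fold change above 0, the 3 under 0 and 3 of the 20 reached an unadjusted p of 0.05, and the median was 0.249.

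Other members of the family were at lower levels. *Slc22a23*, an orphan member, had 77.3, 68.1, 67.6 and 55.4 CPM in NT and 72.7, 102, 99.65 and 110.2 CPM in shFos kidneys, where replicates 2 to 4 were above the NT range (log2 fold change 0.52 ± 0.15, edgeR adjusted p = 0.0732, DESeq2 adjusted p = 0.0197, edgeR adjusted p without shFos replicate 1 = 0.00787). *Slc22a17*, a receptor for lipocalin 2 in the distal nephron, had 40.2, 40.4, 40.5 and 34.8 CPM in NT and 37.7, 27.6, 23.9 and 26.4 CPM in shFos kidneys, and replicates 2 to 4 were below the NT range (log2 fold change -0.43 ± 0.14, edgeR adjusted p = 0.08, DESeq2 adjusted p = 0.042, edgeR adjusted p without shFos replicate 1 = 0.00337). The genes of the liver group on chromosome 19 varied widely within kidney. *Slc22a26* had 4.54, 2.72, 4.05 and 2.66 CPM in NT and 12.2, 6.61, 2.87 and 26.1 CPM in shFos kidneys. *Slc22a30* had 2.09, 1.455, 2.72 and 1.45 CPM in NT and 5.72, 1.43, 5.54 and 6.804 CPM in shFos kidneys. DESeq2 called both (adjusted p = 0.013 and 0.0261) and edgeR did not (adjusted p = 0.0866 and 0.0878), and shFos replicate 3 was inside the NT range for *Slc22a26*, while shFos replicate 2 was just under it for *Slc22a30*. Hepatocyte markers summed to 541.7, 255.5, 413.0 and 906.1 TPM in the NT and 539.1, 313.5, 350.9 and 321.5 TPM in the shFos kidneys. They did not move together. Among the kidneys *Cyp2e1* was highest in NT replicate 4 (394.6 CPM), where *Alb* had 29.33 CPM, and *Alb* was highest in NT replicate 1 (145.4 CPM). The part of these markers in the result was not tested.

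Of the remaining sodium-proton exchangers, *Slc9a5*, which is known from brain, had 3.06, 4.835, 3.36 and 1.915 CPM in NT and 2.585, 0.856, 1.24 and 1.02 CPM in shFos kidneys, with replicates 2 to 4 below the NT range (log2 fold change -1.21 ± 0.41, edgeR adjusted p = 0.089, DESeq2 adjusted p = 0.0341, edgeR adjusted p without shFos replicate 1 = 0.0103). *Slc9a8* ranged from 56.8 to 318 CPM in NT and from 152 to 488 CPM in shFos kidneys, with NT replicate 4 and shFos replicate 3 lowest in their groups.

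The remaining members were named to account for the families and not by a rule. *Slc22a22*, a prostaglandin transporter of the kidney, had 22.3, 18.1, 25.8 and 5.885 CPM in NT and 23.4, 31.01, 34.4 and 38.8 CPM in shFos kidneys. NT replicate 4 was far below the rest and shFos replicate 1 was inside the NT range, as for the phosphate transporters (log2 fold change 0.83 ± 0.38, edgeR adjusted p = 0.174). *Slc22a14*, a transporter best known from sperm, had 0.881, 1.74, 1.105 and 2.01 CPM in NT and 1.29, 0.571, 0.495 and 0.482 CPM in shFos kidneys (log2 fold change -0.9956, edgeR adjusted p = 0.135), and edgeR called it without shFos replicate 1 (adjusted p = 0.0204). *Slc4a5*, an electrogenic sodium-bicarbonate cotransporter, was near the filter at 1.25, 1.55, 1.43 and 2.85 CPM in NT and 1.48, 0.666, 0.742 and 1.02 CPM in shFos kidneys, where replicates 2 to 4 were below the NT range (log2 fold change -0.84 ± 0.36, edgeR adjusted p = 0.143, and 0.0476 without shFos replicate 1).

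Other kidney members overlapped between the groups. *Slc5a9*, a transporter of mannose and glucose, ranged from 39.7 to 42.3 CPM in NT and from 33.8 to 46.5 CPM in shFos kidneys, with a 95% interval of the log2 fold change from -0.24 to 0.24. *Slc5a11*, a myo-inositol transporter, had 20.7 to 47.6 CPM in NT and 38.6 to 52.6 CPM in shFos kidneys, and *Slc9a2*, an apical sodium-proton exchanger, had 19.85 to 39.7 and 31.8 to 49.98 CPM. In both the lowest value was NT replicate 4. *Slc4a11* was within 18.5 to 36.4 CPM in NT kidneys and at 36.7, 29.1, 8.96 and 29.2 CPM in shFos kidneys, of which replicate 3 alone was below that range. The sodium-driven exchangers *Slc4a7* and *Slc4a8*, the Golgi exchanger *Slc9a7*, the gastric exchanger *Slc9a4* and the low *Slc12a8* overlapped between treatments, with log2 fold changes of 0.15, -0.20, -0.070, -0.18 and 0.46.

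**Figure D5:**
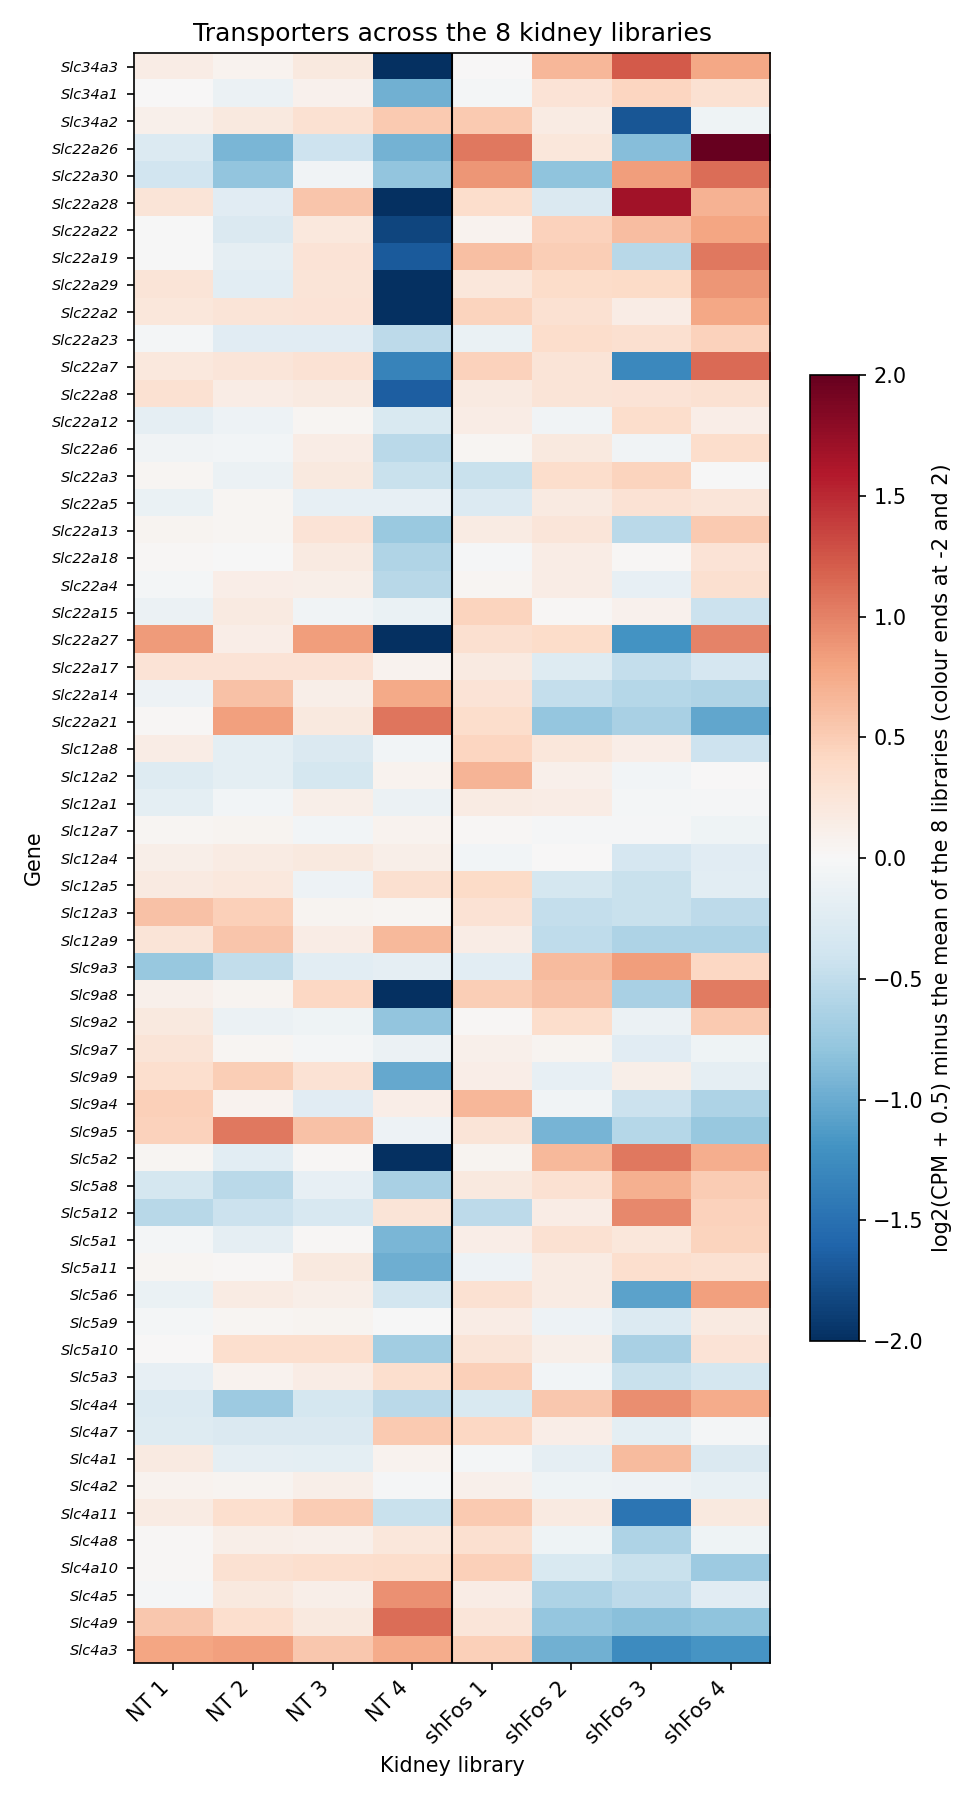
Colour map of 59 of the 63 transporters tested in kidney (rows, by family and fold change) in the 8 kidney libraries (columns), where colour is log2(CPM + 0.5) minus the mean of the gene over the 8 libraries. NT replicate 4 is blue for many *Slc22*, *Slc34* and *Slc5* genes, and shFos replicate 1 resembles the NT columns in the *Slc4* and *Slc12* rows where replicates 2 to 4 are blue.

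The same question was asked of the liver, where 38 of the 67 transporters passed the filter. In edgeR 0 of the 38 had an adjusted p under 0.05, as for all genes, of which 0 of 13144 (0%) passed, and 2 of the 38 (5.263%) had an unadjusted p under 0.05, next to 6.74% of all genes. DESeq2 called 0 transporters and 0.219% of all genes. The groups did not overlap for 2 of the 38 (5.26%), *Slc12a7* and *Slc4a2*, next to 4.31% of all genes, and the median log2 fold change was -0.034. *Slc12a7* had 110.0, 121, 105 and 98.2 CPM in NT and 153, 123, 149.7 and 186 CPM in shFos livers, and shFos replicate 2 was only just above the highest NT liver. Its log2 fold change was 0.48 ± 0.14 (edgeR adjusted p = 0.714, DESeq2 adjusted p = 0.225). *Slc4a2* had 53.7, 52.01, 52.9 and 42.7 CPM in NT and 58.5, 55.1, 54.2 and 62.3 CPM in shFos livers, a log2 fold change of 0.18 ± 0.10 (edgeR adjusted p = 0.742).

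*Slc22a21*, a carnitine transporter next to *Slc22a5* on chromosome 11, had 1.385, 2.198, 1.98 and 4.796 CPM in NT and 1.196, 1.11, 1.15 and 1.455 CPM in shFos livers. NT replicate 4 was the highest and NT replicate 1 lay inside the shFos range, and the log2 fold change of -1.09 ± 0.39 (edgeR adjusted p = 0.714) was -0.62 without NT replicate 4. In kidney the gene had 3.66, 6.71, 4.19 and 8.13 CPM in NT and 4.71, 1.903, 2.13 and 1.5 CPM in shFos libraries, where replicate 1 alone of the shFos group was inside the NT range (log2 fold change -1.14 ± 0.39, edgeR adjusted p = 0.0941, and 0.00881 without replicate 1). Of its 150-base stretches, 6.64% also occur in *Slc22a5*, which limits how its reads can be assigned. *Slc5a3*, the myo-inositol transporter, had 6.925, 5.13, 8.93 and 3.75 CPM in NT and 5.98, 11.3, 11.1 and 9.67 CPM in shFos livers, which overlapped (log2 fold change 0.61 ± 0.30, edgeR adjusted p = 0.734). *Slc22a4*, the ergothioneine transporter, had 2.49, 4.965, 2.85 and 4.197 CPM in NT and 5.18, 4.74, 4.11 and 6.93 CPM in shFos livers, with overlap too (log2 fold change 0.52 ± 0.27, edgeR adjusted p = 0.737).

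The organic ion transporters of the liver overlapped between treatments. *Slc22a7* had 66.9, 52.99, 32.9 and 2.55 CPM in NT and 34.05, 70.1, 23.85 and 145 CPM in shFos livers, with NT replicate 4 at the bottom and an interval from -1.10 to 2.69. *Slc22a26* had 321, 233, 275 and 86.7 CPM in NT and 285, 284, 211 and 315 CPM in shFos livers. *Slc22a30* had 250.1, 191, 248 and 35.45 CPM in NT and 206, 232, 191.5 and 276 CPM in shFos livers. In these 3 genes NT replicate 4, the library with the lowest summed level of hepatocyte markers, was the lowest of the 8 livers. *Slc4a4* had 69.3, 131, 99.6 and 129.7 CPM in NT and 108, 104, 93.02 and 84.7 CPM in shFos livers (log2 fold change -0.15 ± 0.19), and *Slc9a8* had a log2 fold change of -0.10 ± 0.14. *Slc4a9* was low in 7 livers, at 0.554 to 3.78 CPM, and at 21.4 CPM in NT replicate 4, and its log2 fold change was -1.62 with that library and 1.415 without it. *Slc4a1* was at 0.369, 6.84, 0.5855 and 0.4497 CPM in NT livers, and replicate 2 also held the most of the red cell markers, which summed to 23.88 TPM there and to 6.851 to 9.373 TPM in the other NT livers. Liver shFos replicate 3 held more of these markers, 30.35 TPM, and 0.2467 CPM of *Slc4a1*.

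A difference in the effect of treatment between kidney and liver was tested in the fit of all 16 libraries. None of the 63 transporters tested passed an adjusted p of 0.05, as for all 15421 genes (0%), and 12 had an unadjusted p under 0.05 (19.05%), next to 16.1% of all genes. The smallest p belonged to *Slc12a9*, *Slc12a7* and *Slc4a4*, the 3 genes that DESeq2 called, with 2.26% of all genes called. *Slc12a9* had a log2 fold change of -0.80 in kidney and 0.14 in liver, a difference of -0.95 ± 0.24 (edgeR adjusted p = 0.179, DESeq2 adjusted p = 0.0325). *Slc12a7* had -0.048 in kidney and 0.48 in liver, a difference of -0.55 ± 0.16 (edgeR adjusted p = 0.186, DESeq2 adjusted p = 0.0462). *Slc4a4* had 1.02 in kidney and -0.15 in liver, a difference of 1.15 ± 0.33 (edgeR adjusted p = 0.186, DESeq2 adjusted p = 0.0408). Without kidney shFos replicate 1, edgeR called 5 transporters, 2 with the higher effect in kidney and 3 in liver, with 7.99% of all genes called.

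Genes that regulate these transporters or work beside them were taken as a list of 40, of which 38 symbols were in the tables. The list holds scaffolds such as *Pdzk1*, the kinases and ubiquitin ligase parts that control *Slc12a1* and *Slc12a3*, ion channels and the HNF factors. Between organs, 33 of 37 tested differed, 27 higher in kidney (73%, next to 34.4% of all genes) and 6 in liver (16.2%, next to 30.2%). Between treatments in kidney, 0 of 37 passed the adjusted threshold in edgeR, 11 reached an unadjusted p of 0.05 (29.7%, next to 31.9% of all genes), with 6 of them higher and 5 lower, and DESeq2 called 9 of 38 (23.7%, next to 17.0%), 6 higher and 3 lower. *Wnk4*, a kinase upstream of *Slc12a3*, had a mean of 289 CPM in NT and 165 CPM in shFos kidneys (log2 fold change -0.81, DESeq2 adjusted p = 0.00698). *Sgk1*, a kinase induced by aldosterone, had 111 and 211.5 CPM (log2 fold change 0.94, DESeq2 adjusted p = 0.00411), and *Kl*, the FGF23 co-receptor that lowers phosphate uptake by *Slc34a1*, had 316.5 and 467 CPM (log2 fold change 0.57, DESeq2 adjusted p = 0.0159). In liver 2 of 27 tested (7.41%, next to 6.74% of all genes) had an unadjusted p under 0.05, *Klhl3*, a ubiquitin ligase part, and *Pth1r*, the parathyroid hormone receptor, both higher with shFos.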

How the data were processed

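Total RNA of kidney and liver was sequenced in pairs of 150-base reads. The authors trimmed reads with Trimmomatic 0.39, aligned them to mm10 with HISAT2 2.2.1, counted them per gene with HTSeq 0.12.4 without regard to strand, and deposited the raw read counts. Lines that name no gene (13.4% to 26.7% of the counted reads without a feature, 1.84% to 2.64% ambiguous) were left out. Because strand was ignored, overlapping genes cannot be told apart, and multi-mapping reads of close paralogs can be lost.

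From these counts, edgeR 4.0.16 in R 4.3.3 was run on all genes of each organ (filterByExpr, TMM, robust quasi-likelihood test, Benjamini-Hochberg adjusted p, called under 0.05), and on all 16 libraries with 4 group means for the contrast of NT kidney with NT liver and for the interaction of organ and treatment. Every adjusted p is from edgeR unless DESeq2 is named. DESeq2 was run here in version 1.42.0, and the study used an older version of it. GENCODE M21 gave coordinates and exon lengths for 98.2% of genes, and RefSeq the upstream sequences. A limit of 3 counts corresponds to 0.164 to 0.211 CPM per library and covers counting error only. The fits were tested on simulated counts. No replicate was the same library as another.

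The members, lists and named genes were chosen with earlier results of these data known. Named were transporters of known place in nephron or hepatocyte, the 2 genes of each family with the smallest p in each organ, the 3 with the smallest interaction p, the 2 of each family with the highest level in each organ, and the 3 with the largest difference between organs in each direction. Some members and partners entered the fits and counts and are not reported here by name. Other members were named after their values were seen. Alternatives were DESeq2, upper-quartile scaling, other filters, all libraries in a single fit, a GC correction, the replicate number as a block, the 8 NT libraries alone, the shFos libraries in place of NT, and leaving out each replicate. Deviations of kidney and liver NT libraries with the same number correlated at 0.123 to 0.401 over genes, and those of shFos libraries at 0.0409 to 0.156.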

Additional observations from a re-analysis of the deposited data

Results flagged for a closer look

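Among 123 groups of 4 libraries with a mean of at least 1 CPM, 14 held a value further from its neighbours than Dixon's test allows at the 95% level, where chance flags about 6.15, and 13 of the 14 are given here. In kidney, NT replicate 4 was the library that stood apart in 5 of them. It had 18.2 CPM of *Slc22a2* (others 118.4 to 122.2), 162 of *Slc22a8* (others 570.3 to 634.8), 93.8 of *Slc22a7* (others 273.3 to 288.6), 2.15 of *Slc34a3* (others 22.95 to 25.19) and 34.8 of *Slc22a17* (others 40.23 to 40.49). The same library held 559.5 TPM of tubular injury markers, where the other NT kidneys held 161.7 to 203.1. These markers were split. *Lcn2* (157.6 CPM, others 33.74 to 48.35) and *Krt20* (4.25 CPM, others 0.783 to 1.483) were highest there. *Havcr1* (2.616 CPM, others 5.398 to 10.34) and *Vcam1* (8.921 CPM, others 27.87 to 36.62) were lowest there. Kidney shFos replicate 1 stood above its group with 1235 CPM of *Slc12a3* (others 703.1 to 740.0), 20.87 of *Slc12a9* (others 12.11 to 13.13) and 58.07 of *Slc4a9* (others 27.41 to 28.54). Kidney NT replicate 2 had 143.7 CPM of *Slc22a5* (others 124.5 to 127.2).

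In liver, NT replicate 4 had 42.72 CPM of *Slc4a2* (others 52.01 to 53.74) and 21.36 CPM of *Slc4a9* (others 0.554 to 0.9514). NT replicate 2 had 6.837 CPM of *Slc4a1* (others 0.3693 to 0.5855), and its red cell markers summed to 23.88 TPM, where the other NT livers held 6.851 to 9.373. Liver shFos replicate 3 had 30.35 TPM of these markers and 0.2467 CPM of *Slc4a1*. Liver shFos replicate 3 had 17.11 CPM of *Slc22a5* (others 34.15 to 35.78).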

How the results depend on the processing

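In kidney the count of transporters called was 0 in edgeR, 13 with DESeq2 and 4 with all 16 libraries in a single fit. It was 25 with NT replicate 4 and shFos replicate 1 both left out, an alternative added after seeing the data. The single fit called 4 of 63 transporters, next to 994 of 15421 genes. With both libraries left out 25 of 63 were called, next to 5183 of 14857 genes. Leaving out 1 library gave 0 to 17 transporters called, and 17 came without shFos replicate 1. At an unadjusted p under 0.05 the count of 20 became 13 with the replicate block and GC correction together and 13 to 27 with 1 library left out, with 13 without NT replicate 2. In liver the count at an unadjusted p under 0.05 was 2 of 38 tested, next to 6.74% of all genes. With all 16 libraries it was 9 of 63, next to 10.34% of all genes. Without a filter it was 4 of 64, next to 5.468% of all genes. These fits tested different sets of transporters, so their counts are not directly comparable. Leaving out 1 library gave 2 to 4, with 4 without NT replicate 1. For the interaction DESeq2 called 3, and leaving out 1 library gave 0 to 5, with 5 without kidney shFos replicate 1. The cause was not tested.

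Fold changes that changed sign were in kidney those of *Slc12a7* (0.02483 after GC correction, 0.02496 with the replicate block and GC correction), of *Slc22a7* (-0.008958 without shFos replicate 4, 0.6819 without shFos replicate 3) and of *Slc4a1* (-0.1468 without shFos replicate 3, 0.2092 without shFos replicate 4). In liver they were those of *Slc34a2* (-0.179 without NT replicate 4, -0.07401 without shFos replicate 1, up to 0.4041) and of *Slc4a9* (0.2168 with the replicate block, 0.2031 with GC correction as well, and from -2.183 without shFos replicate 3 to 1.415 without NT replicate 4).

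Same-numbered NT and shFos libraries deviated with correlations of -0.173 to 0.116 in kidney and -0.261 to 0.0395 in liver, so a shared number does not pair them. With the replicate block 0 transporters were called in kidney and in liver, with 14 and 2 at an unadjusted p under 0.05, and 0 for the interaction, with 11. Between organs the block gave 47 higher in kidney and 9 in liver, and leaving out 1 library gave 44 to 46 and 7 to 9. Among the shFos libraries 3 organ calls were lost and 2 were gained, those of *Slc4a5* (edgeR adjusted p = 0.009386) and *Slc12a9* (edgeR adjusted p = 2.056e-05), and *Slc34a2* was among the lost (edgeR adjusted p = 0.09967). The organ call of *Slc22a15* was lost without kidney NT replicate 1, 3 or 4 or liver NT replicate 2 or 4, that of *Slc22a21* without kidney NT replicate 2 or 4 or liver NT replicate 1, 2 or 3, and that of *Slc12a7* without liver NT replicate 2 (edgeR adjusted p = 0.06723). Low transporters are limited by depth, since 3 counts amount to 0.164 to 0.211 CPM.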

Other observations

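Some genes with related names lie outside the families as defined here. *Slc9a3r1*, the scaffold that holds *Slc9a3* and *Slc34a1* at the apical membrane, had 182.0, 186.6, 192.2 and 169.6 CPM in NT and 172.9, 198.2, 173.7 and 202.8 CPM in shFos kidneys, with a log2 fold change of 0.038 (edgeR adjusted p = 0.809). The groups overlapped. Slc9a3r2, a scaffold of the same kind, had 53.85 to 70.92 CPM in NT and 50.91 to 68.40 CPM in shFos kidneys. *Slc5a4a*, a relative of the glucose transporters, had 0.7473 to 2.119 CPM in NT kidneys, 0.2474 to 1.523 CPM in shFos kidneys and no read in any liver. *Slc9b1* and *Slc9b2* stayed under 0.6 CPM in every library, and *Slc9c1* had no read.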
